A study of Zea mays with 8 samples.

Results

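The 150 genes described here had transcripts at higher levels in droughted than in well-watered maize ovaries, while their levels in the basal leaf meristem of the same experiment stayed level. They were chosen from the RNA sequencing values themselves. A gene had to be in both tables, average at least 5 FPKM (fragments counted on a gene, scaled to gene length and library size) in each, and be at 0 in no library. Its leaf change had to lie between -0.2 and 0.2 on the log2(FPKM + 1) scale, and its 4 leaf values had to span less than 0.5. Of the 23586 genes in both tables, 13672 met the conditions on level and 5304 of these also met the conditions on the leaf. The members are the 150 of these 5304 with the largest difference between droughted and well-watered ovaries, so that the ovary and leaf changes below describe the choice and are not tested.

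The plants were of the inbred line B73, grown in a greenhouse to silk emergence. In the drought groups irrigation was withheld for 2 to 3 days before hand pollination, and in the control groups plants were watered well. Droughted ovaries, well-watered ovaries, droughted basal leaf meristem (from the 3 youngest leaves) and well-watered basal leaf meristem were each taken 24 hours after pollination, with 2 libraries of polyadenylated RNA per group. The sample labels call the 2 libraries biological replicates, the series description speaks of 1 replicate per condition, and neither says whether they came from separate plants, so errors measure the spread between these libraries. The description calls the control ovary material ovaries or cob, and how much cob tissue either ovary group held is not known.

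Drought around silking is known for its effect on kernel set in maize. The young ovary depends on sugar delivered from the leaves, while the leaf base is a zone of dividing and expanding cells. Abscisic acid, the main hormone of water deficit, acts through a short chain in plants. Receptors of the PYL family bind the hormone and then block phosphatases of type 2C, which frees kinases of the SnRK2 family to phosphorylate transcription factors and channels.

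The libraries differed little in scale. Total FPKM lay between 783683 and 843595 in leaf libraries. In ovary libraries it lay between 661161 and 733453, with control 2 taken without its 2 largest genes, neither of them a member, which bring its total to 9212840. Among genes under 1 FPKM, the commonest ratio between the values of 2 libraries was taken to follow what 1 fragment is worth. This reading was not checked against fragment counts. The ratio put a fragment of leaf control 2 at 0.742 times its worth in leaf drought 1, from 49 of 2848 such genes. A lower worth goes with more mapped fragments. The other leaf libraries stood at 1.04, and the other ovary libraries at 0.933 to 1.06 of ovary drought 1. Absolute depth is not known, so no interval for counting error is given. The tissue labels fitted floral markers. The 20 gene IDs of floral MADS-box factors, which specify flower organs, summed to 2342 and 2460 FPKM in droughted ovaries and to 2406 and 2250 FPKM in well-watered ovaries, against 147 to 233 FPKM in the 4 leaf libraries. The 11 KNOX and vegetative meristem genes were not higher in the leaf meristem. They summed to 47.4 to 57.2 FPKM in the leaf libraries and to 87.2 to 188 FPKM in the ovary libraries. In bulk tissue, fewer cells of a type and less RNA per cell cannot be told apart.

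Ovary levels of the members were between 3.29 and 34.4 times higher under drought by their mean FPKM, with a median of 4.65 times. On the log2(FPKM + 1) scale the ovary changes ran from 1.70 to 4.50 with a median of 2.10, and 85 members were at 2 or more, 13 at 3 or more and 4 at 4 or more. The median ovary change was -0.02 over the 5304 genes the rule could choose from and -0.05 over all 23770 genes fitted in the ovary. In all 150 members both droughted ovary libraries were at least 2-fold above both controls. Over all genes fitted, 11.8% had such a 2-fold separation and 37.8% had both droughted libraries above both controls by any amount. The rule used the means of this contrast, so nothing is read from the members' count. The edge of the set is not a gap in the data. The last members, ranked 146 to 150, had ovary changes of 1.72 to 1.70, and the next 5 genes 1.67 to 1.65.

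**Figure D1:**
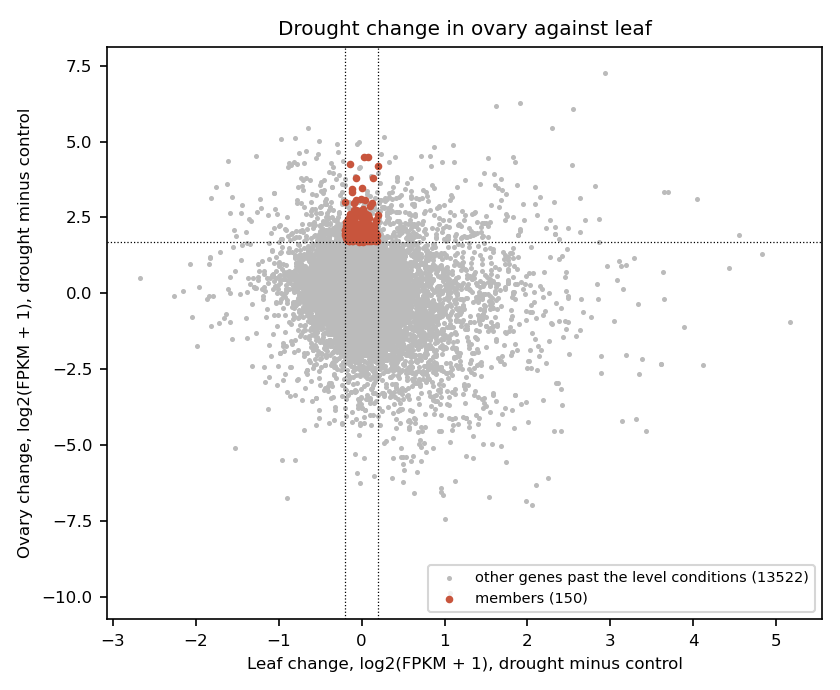
Each point is a gene that met the conditions on level, with its leaf change on the x axis and its ovary change on the y axis, both as droughted minus well-watered mean log2(FPKM + 1). The 150 members (red) lie above the dotted line at 1.70 and between the dotted lines at -0.2 and 0.2, and the other genes (grey) surround them without a gap.

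Genes with a large ovary difference were of several kinds in the leaf. Of the 724 genes that met the conditions on level and had an ovary change at or above that of the last member, 285 (39.4%) had a leaf change above 0.2 and 231 (31.9%) had one below -0.2. A further 58 had a leaf mean change within 0.2 but leaf values that spanned 0.5 or more. The members are the remaining 150, or 20.7%. Among all 13672 genes that met the conditions on level, 23.6% had a leaf change above 0.2, 33.0% had one below -0.2, and 38.8% were flat by the rule. The limma fit over all genes called 23.6% of 23770 genes as rising in the ovary and 3.26% of 22418 genes in either direction in the leaf, at an adjusted p under 0.05. It called all 150 members as rising in the ovary and none in the leaf, where none had an unadjusted p under 0.05 either. For the ovary change minus the leaf change the fit called 23% of 20252 genes as positive, and all 150 members. The rule used these contrasts, so nothing is read from the counts of members.

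The members held high ranks in droughted ovaries and middling ranks in well-watered ones. Their median was 72.0 and 81.4 FPKM in droughted ovaries and 16.1 and 14.9 FPKM in well-watered ovaries. In the leaf the median was 26.4 and 24.1 FPKM under drought and 25.4 and 26.3 FPKM in controls. Ranked among the 23586 shared genes within each library, which needs no common scale, the median member stood at percentile 92.8 and 93.6 in droughted ovaries, against 59.5 and 58.8 in well-watered ovaries. In the leaf it stood between 75.2 and 77.8 in all 4 libraries. The median member therefore ranked below its leaf position in watered ovaries and above it in droughted ovaries. The rule chose on the ovary values, so this is partly fixed by it.

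**Figure D2:**
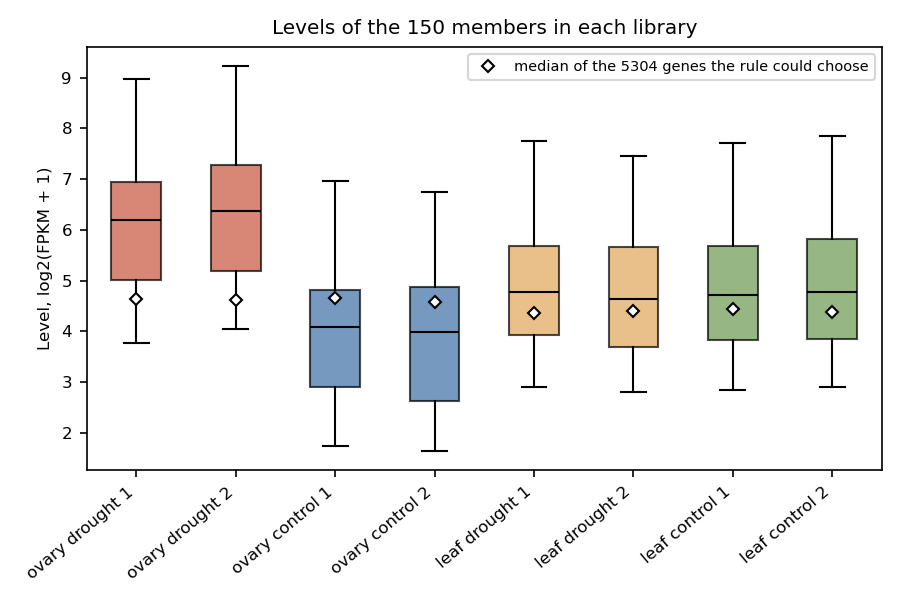
Boxes give the quartiles and median of log2(FPKM + 1) of the 150 members in each library, whiskers run from the 5th to the 95th percentile, and diamonds mark the median of the 5304 genes the rule could choose. The members' median is highest in the 2 droughted ovary libraries, at 72.0 and 81.4 FPKM, and lowest in the 2 well-watered ovary libraries, at 16.1 and 14.9 FPKM, while the diamonds stay level.

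The members split by where their ovary level stood against the leaf. The ovary and leaf tables were normalized separately, so far as the files show, and these are levels set side by side. In 62 members both well-watered ovary libraries were below all 4 leaf libraries and both droughted ones above all 4. In 30 members the well-watered ovaries were already above all 4 leaf libraries, with droughted ovaries higher still. In 18 members both droughted ovary libraries still lay below all 4 leaf libraries, and the other 40 had overlapping values. The shares of these classes among other genes are not given here, so the split only describes the members. As means of log2(FPKM + 1), ovary levels were below leaf levels for 27 members (18%) in droughted plants and for 113 members (75.3%) in well-watered plants. Among the 5304 genes the rule could choose these shares were 39.4% in droughted and 33.6% in well-watered plants. The rule favours genes that are high in droughted ovaries and low in watered ones, so both of the members' shares are partly fixed by it.

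**Figure D3:**
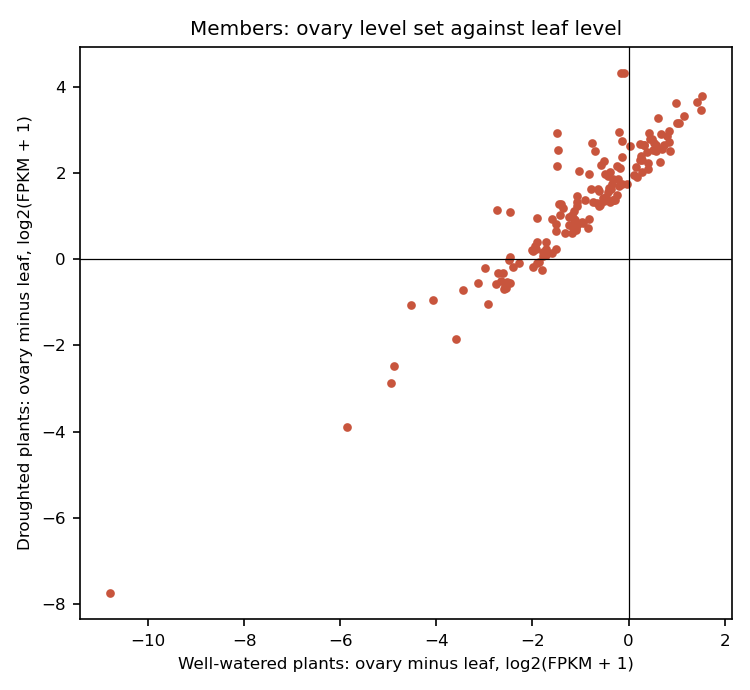
Each point is 1 of the 150 members, with the ovary level minus the leaf level in log2(FPKM + 1) in well-watered plants on the x axis and in droughted plants on the y axis. Points left of the vertical line and above the horizontal line, 86 members, were below the leaf in watered plants and above it under drought, and the 27 points below the horizontal line stayed below the leaf.

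Names are known for few of the members. Of the 150 IDs, 121 matched a gene of the RefSeq annotation of B73 and 17 carry a name there that says what the gene is, while the other 133 can be given by ID alone. The named ones hold 3 genes of abscisic acid signalling families, 4 transcription factors and 2 glutathione transferases. Single genes are of sucrose cleavage, cytokinin perception, chlorophyll breakdown, plastid transcription, iron-sulphur assembly, translation initiation and the Mediator complex, besides ACR4, for which no role is given here. The rule could choose 7 genes of the abscisic acid list, 3 type 2C phosphatases and 3 glutathione transferases. For NAC factors the number was 2, for MYB and WRKY factors 9, for homeobox factors 13 and for the heat shock list 7. It took 2.83% of all genes it could choose, and nothing is read from the counts by class. Droughted and watered leaf values overlapped in 11 of the 17. In the other 6 all leaf changes were within the rule's limit of 0.2, with both droughted libraries above both watered ones in MYB112 and nbp35 and below them in SnRK2.1, HB128, ACR4 and hk2. The share of all genes with such a separation in the leaf is not given here, and nothing is read from these counts.

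**Figure D4:**
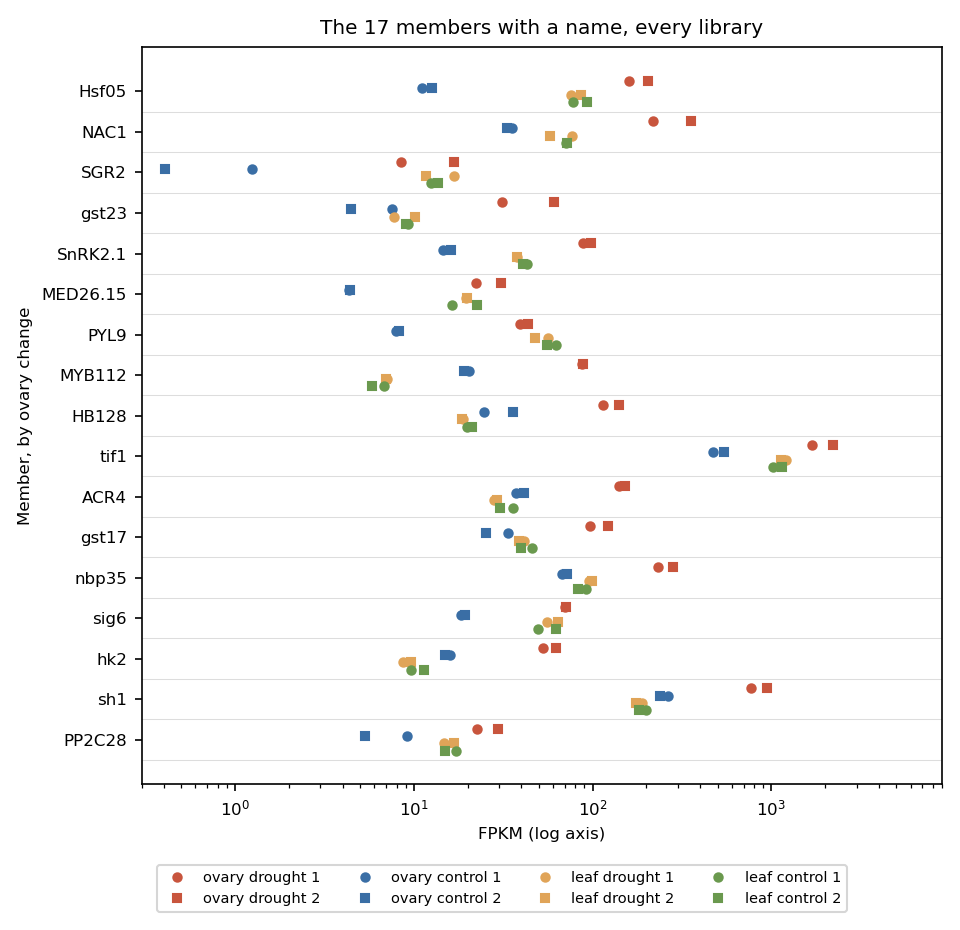
Every library's FPKM (log axis) is shown for the 17 members with a name, ordered by ovary change from top to bottom. Circles are library 1 and squares library 2 of droughted ovary (red), well-watered ovary (blue), droughted leaf (orange) and well-watered leaf (green), and in each gene the 2 red symbols lie right of the 2 blue ones while orange and green overlap in 11 genes.

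By their names, members came from all 3 gene families of the abscisic acid chain. Whether these genes act in that chain was not tested. The receptor gene PYL9 (GRMZM2G048733) had 39.2 and 43.3 FPKM in droughted ovaries, against 7.98 and 8.23 FPKM in well-watered ovaries. In the leaf it had 56.2 and 47.6 FPKM under drought and 62.5 and 55.6 FPKM in controls, so droughted ovaries came close to the leaf without reaching it. Its ovary change was 2.21 ± 0.16 (SE of the limma fit, n = 2 libraries per condition, as for all such values here). The kinase gene SnRK2.1 (GRMZM2G035809) had 88.8 and 97.7 FPKM in droughted ovaries, against 14.5 and 16.2 FPKM in well-watered ovaries, a change of 2.53 ± 0.15. Its 4 leaf values lay between 37.8 and 43.1 FPKM, between the 2 ovary groups. The phosphatase gene PP2C28 (GRMZM2G071087) had 22.6 and 29.5 FPKM in droughted ovaries, against 9.19 and 5.35 FPKM in well-watered ovaries, a change of 1.74 ± 0.28, with leaf values of 14.7 to 17.3 FPKM. The 2 control libraries of PP2C28 differed more than its droughted ones, and of these 3 members it is nearest the edge of the set.

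Other genes of these families and of abscisic acid synthesis were not uniform in the ovary. The abscisic acid list, which holds synthesis genes, PYL receptors and SnRK2 kinases by symbol, had 18 genes tested in the ovary, of which limma called 7 as rising and 5 as falling. Its median log2 change was 0.37, and the background was 23.6% rising and 29.5% falling of all genes. Of the kinases outside the members, SnRK2.6 (GRMZM2G130018) had 118 and 130 FPKM in droughted and 45.8 and 44.0 FPKM in well-watered ovaries (log2 change 1.44 ± 0.14, limma adjusted p = 0.000718). The kinase gene SnRK2.7 (GRMZM2G155593) had 5.35 and 7.32 FPKM in droughted ovaries, against 39.5 and 46.8 FPKM in well-watered ovaries (log2 change -2.60 ± 0.20, limma adjusted p = 0.000325). These 2 kinases of the same family changed in opposite directions in the ovary. Among type 2C phosphatases 14 of 23 tested rose and 3 fell, with a median of 0.86. The wider list of protein kinases and calcium sensors, which also holds the SnRK2 genes, had 10 of 31 rising and 4 falling, with a median of 0.28.

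Transcription factors made up 4 of the named members. The heat stress factor gene Hsf05 (GRMZM2G133023) had 159 and 203 FPKM in droughted ovaries, against 11.1 and 12.7 FPKM in well-watered ovaries, a change of 3.81 ± 0.18. In the leaf it had 75.7 and 86.4 FPKM under drought and 77.6 and 92.7 FPKM in controls. A second ID of the same RefSeq gene, GRMZM2G132971, carries exactly these 4 leaf values, but in the ovary it had 61.2 and 52.0 FPKM under drought and 44.1 and 50.5 FPKM in controls, where limma did not call it (log2 change 0.25 ± 0.16, adjusted p = 0.241). The 2 IDs thus share 1 value in the leaf and have separate values in the ovary, and how the leaf value divides between them is not known.

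The NAC factor gene listed as NAC1 (GRMZM2G014653), of a plant family with roles in stress and senescence, had 217 and 355 FPKM in droughted ovaries, against 35.6 and 33.2 FPKM in well-watered ovaries, a change of 2.98 ± 0.25. Leaf values were 76.7 and 57.7 FPKM under drought and 70.6 and 71.9 FPKM in controls. The same name is attached to 3 other IDs, of which GRMZM2G336533 is given as an example that rose in both tissues (ovary log2 change 3.35 ± 0.29, limma adjusted p = 0.000458, leaf log2 change 3.69, limma adjusted p = 0.0462). The shared name therefore covers IDs with different leaf patterns. Of 21 NAC genes tested in the ovary 11 rose and 3 fell, with a median of 0.67, and only 2 of the 25 IDs matched met every condition of the rule other than the ovary rank.

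MYB112 (GRMZM5G803308), of the MYB factors, had 86.7 and 87.9 FPKM in droughted ovaries, against 20.4 and 19.0 FPKM in well-watered ovaries, a change of 2.09 ± 0.14. Its leaf values were low, at 5.82 to 7.07 FPKM. HB128 (GRMZM2G041462), a homeobox gene by its name, had 114 and 141 FPKM in droughted ovaries, against 24.8 and 35.8 FPKM in well-watered ovaries, a change of 2.05 ± 0.22, with 18.6 to 21.1 FPKM in the leaf. Both genes stood above the leaf in watered ovaries already. Of 59 MYB and WRKY genes tested in the ovary 21 rose and 17 fell (median 0.18), and of 40 homeobox genes 14 rose and 11 fell (median 0.24). MED26.15 (GRMZM2G120971), by its name a subunit of the Mediator complex that links factors to RNA polymerase, had 22.1 and 30.8 FPKM in droughted ovaries, against 4.35 and 4.38 FPKM in well-watered ovaries. Its change was 2.34 ± 0.21, and its leaf values of 16.3 to 22.7 FPKM overlapped the lower droughted value.

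In sugar metabolism the member was sh1 (GRMZM2G089713), a sucrose synthase gene also called shrunken1, whose product splits sucrose. It had 765 and 947 FPKM in droughted ovaries, against 263 and 239 FPKM in well-watered ovaries, a change of 1.76 ± 0.19. Its leaf values, 175 to 198 FPKM, lay below all 4 ovary values. Other sucrose synthase genes differed in direction. In the ovary sus2 (GRMZM2G318780) had 300.3 and 183 FPKM under drought and 82.4 and 82.1 FPKM in controls (log2 change 1.50 ± 0.25, limma adjusted p = 0.00462), and in the leaf it had 98.1 and 160 FPKM under drought, against 78.1 and 77.4 FPKM in controls. For sus1 (GRMZM2G152908) the ovary values were 58.7 and 48.0 FPKM under drought and 517 and 387 FPKM in controls (log2 change -3.05 ± 0.21, limma adjusted p = 0.000219). The ovary transcripts of these sucrose synthase genes thus moved in opposite directions. Of 16 genes of sucrose and hexose metabolism and transport tested in the ovary, 3 rose and 8 fell, with a median of -0.70.

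The glutathione transferases, which join glutathione to reactive compounds, had 2 members. gst23 (GRMZM2G416632) had 31.1 and 60.8 FPKM in droughted ovaries, against 7.50 and 4.44 FPKM in well-watered ovaries, a change of 2.71 ± 0.37. gst17 (GRMZM2G064255) had 96.4 and 123 FPKM in droughted ovaries, against 33.4 and 25.3 FPKM in well-watered ovaries, a change of 1.87 ± 0.21. In both genes the droughted ovaries lay above all 4 leaf values, which were 7.71 to 10.1 FPKM for gst23 and 38.6 to 45.7 FPKM for gst17. Of 23 glutathione transferase genes tested in the ovary 5 rose and 7 fell (median 0.06), and gst1 (GRMZM2G116273) had 48.2 and 50.4 FPKM under drought and 408 and 444 FPKM in controls (log2 change -3.09 ± 0.15, limma adjusted p = 8.15e-05).

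Chlorophyll breakdown, plastid transcription and iron-sulphur assembly had a named member each. SGR2 (GRMZM2G091837), by its name a staygreen gene of the family that starts chlorophyll breakdown, had 8.48 and 16.8 FPKM in droughted ovaries, against 1.25 and 0.405 FPKM in well-watered ovaries, a change of 2.87 ± 0.38. Its leaf values of 11.7 to 16.8 FPKM overlapped those of droughted ovaries. sig6 (GRMZM2G144196), a sigma factor of the plastid RNA polymerase, had 70.1 and 71.3 FPKM in droughted ovaries, against 18.3 and 19.4 FPKM in well-watered ovaries, a change of 1.85 ± 0.14, with 49.2 to 64.4 FPKM in the leaf. nbp35 (GRMZM2G031496), of a family that assembles iron-sulphur clusters, had 231 and 280.1 FPKM in droughted ovaries, against 67.2 and 72.1 FPKM in well-watered ovaries, a change of 1.86 ± 0.17, with 83.3 to 99.2 FPKM in the leaf. For sig6 and nbp35 well-watered ovaries lay below all 4 leaf values and droughted ovaries above them.

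The remaining named members were a hormone receptor, a translation factor and a gene of unstated role. hk2 (GRMZM2G471529), a histidine kinase gene of the cytokinin receptors, had 52.5 and 62.6 FPKM in droughted ovaries, against 15.8 and 14.9 FPKM in well-watered ovaries, a change of 1.84 ± 0.16, with 8.68 to 11.4 FPKM in the leaf. tif1 (GRMZM5G835323), also called GOS2, encodes a translation initiation factor and was the most abundant named member. It had 1679 and 2205 FPKM in droughted ovaries, against 469 and 546 FPKM in well-watered ovaries, a change of 1.92 ± 0.23, and 1021 to 1204 FPKM in the leaf. ACR4 (GRMZM2G383408) had 141 and 152 FPKM in droughted ovaries, against 37.5 and 41.4 FPKM in well-watered ovaries, a change of 1.87 ± 0.15, with 28.2 to 35.7 FPKM in the leaf.

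The top of the set is mostly without names. The first 2 IDs, GRMZM2G129300 and GRMZM2G129298, carried nearly the same values in every library, with a largest gap of 0.0544 on the log2(FPKM + 1) scale. GRMZM2G129300 had 106 and 156 FPKM in droughted ovaries, against 4.30 and 5.20 FPKM in well-watered ovaries, a change of 4.50 ± 0.23, with 4.67 to 6.14 FPKM in the leaf. These 2 IDs cannot be counted as separate observations. The next, GRMZM2G022915, had 52.6 and 67.9 FPKM in droughted ovaries, against 2.99 and 1.53 FPKM in well-watered ovaries, a change of 4.26 ± 0.27. GRMZM2G035853 had 203 and 277 FPKM in droughted ovaries, against 11.3 and 12.8 FPKM in well-watered ovaries, a change of 4.19 ± 0.20. Both lay below the leaf in watered ovaries and above it under drought, with leaf values of 6.73 to 9.12 FPKM for GRMZM2G022915 and 32.9 to 43.3 FPKM for GRMZM2G035853. AC234165.1_FG002 completed the leaders around Hsf05, with 315 and 367 FPKM in droughted ovaries, against 29.4 and 19.1 FPKM in well-watered ovaries, and 65.8 to 80.8 FPKM in the leaf. Of the IDs ranked 7 to 20, whose changes were 3.47 to 2.71, GRMZM2G090616 (3.47), GRMZM2G420715 (3.43), GRMZM2G020761 (3.01), GRMZM2G449709 (2.79), GRMZM2G015314 (2.76) and GRMZM2G162868 (2.73) were also below the leaf in watered ovaries and above it under drought in every library. GRMZM2G143613 (3.07) and GRMZM2G381051 (2.99) had watered ovary values that overlapped the leaf. GRMZM2G099984 (3.34) stayed below the leaf, with 411 and 598 FPKM in droughted ovaries, against 47.7 and 48.4 FPKM in well-watered ovaries, and 1038 to 1195 FPKM in the leaf.

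The most abundant members were of different kinds. GRMZM2G123896 had the highest droughted ovary level, 4606 and 4952 FPKM, against 883 and 700.3 FPKM in well-watered ovaries, and 1773 to 2371 FPKM in the leaf. GRMZM2G064136 had 2912 and 2592 FPKM in droughted ovaries, against 794 and 698 FPKM in well-watered ovaries, and 771 to 878 FPKM in the leaf. Both stood above the leaf under drought. GRMZM2G164229 had 512 and 658 FPKM in droughted ovaries, against 158 and 135 FPKM in well-watered ovaries, far below its leaf values of 8045 to 8908 FPKM. GRMZM2G022958 had the widest gap to the leaf, with 9.53 and 58.8 FPKM in droughted ovaries, against 1.67 and 2.33 FPKM in well-watered ovaries, and 4707 to 5891 FPKM in the leaf. Its droughted libraries were 2.51 apart on the log2 scale, the largest gap of any member, and its change of 3.07 ± 0.76 was 1.82 without ovary drought 2 and 4.33 without ovary drought 1. The next largest gaps between droughted libraries were those of GRMZM2G467682, with 6.00 and 15.6 FPKM, and GRMZM2G087824, with 15.4 and 32.0 FPKM. Between well-watered libraries they were those of GRMZM2G086869, with 11.0 and 5.21 FPKM, GRMZM2G420715, with 6.85 and 3.23 FPKM, and GRMZM2G378040, with 6.21 and 3.05 FPKM. GRMZM2G434557 was the member lowest in watered ovaries, with 10.4 and 9.89 FPKM in droughted ovaries, against 0.402 and 0.187 FPKM in well-watered ovaries, and 19.5 to 21.4 FPKM in the leaf. Its change of 3.11 was 4.75 with a pseudocount of 0.1 in place of 1 FPKM, and that of SGR2 was 3.87.

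The 2 droughted ovary libraries, whose mean the rule used, also differed from each other in the members. Ovary drought 2 was higher than ovary drought 1 in 121 of 150 members (80.7%), with a median difference of 0.28 on the log2(FPKM + 1) scale, against 46.4% and -0.02 among the 5304 genes the rule could choose. Between the well-watered libraries, control 2 was higher than control 1 in 60 members (40%), close to the 40.4% of those 5304 genes. The other 574 genes with ovary changes as large, which were not flat in the leaf, were higher in drought 2 in 80.1% of cases, a share close to that of the members. In the 150 genes with the lowest ovary changes under the same leaf conditions the share was 34% and the median -0.13. Among the 3473 genes that limma called rising in the ovary and that met the conditions on level, the share was 64.7% and the median 0.09. In most genes of these groups drought 2 thus lay farther from the controls than drought 1. All these groups were chosen on values of the same ovary libraries, so their shares are partly fixed by the choice. Whether the plants behind the 2 libraries differed in water status is not given in the sources used here, and no test across genes was made because the genes of a library share it.

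**Figure D5:**
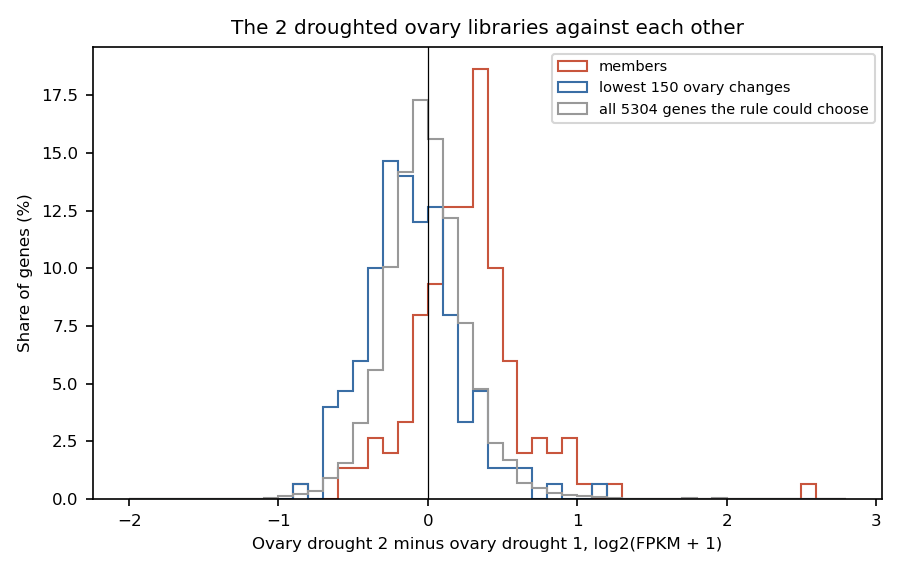
Histograms, as a share of each gene group in %, of ovary drought 2 minus ovary drought 1 in log2(FPKM + 1), in steps of 0.1. The members (red) lie mostly right of 0 with a median of 0.28, the 150 lowest ovary changes (blue) mostly left of it with a median of -0.13, and the 5304 genes the rule could choose (grey) around 0.

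Sums of other marker lists differed between the ovary groups too. The 11 KNOX and vegetative meristem genes summed to 188 and 181 FPKM in droughted ovaries and to 108 and 87.2 FPKM in well-watered ovaries, with 8 rising, none falling and none at 0 in the ovary. The 11 IDs of lignified vascular genes summed to 86.7 and 148 FPKM in droughted ovaries and to 1057 and 1905 FPKM in well-watered ovaries. Their sums in the leaf libraries were 177 to 277 FPKM. Of 7 tested in the ovary 6 fell and 1 rose. In all ovary libraries 3 of the laccase IDs were at 0 or not listed, and lac4 (GRMZM2G072780) was listed at 0 in both droughted ones. Of 19 floral MADS-box genes tested 6 rose and 8 fell. The 1 pollen marker, ms32 (GRMZM2G163233), fell, and of 3 endosperm markers 1 rose and 2 fell. No member is in these lists. The rule could choose only 2 of the KNOX genes, 1 pollen and 1 endosperm gene, and 0 of the floral and vascular genes. It took 2.83% of all genes it could choose, so nothing is read from this absence. The part of tissue makeup in the members' ovary changes was not tested.

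Some lists of stress and growth genes held no member. The rule could choose 0 genes of the trehalose and the dehydrin and LEA lists, and 1 of raffinose and inositol. It could choose 5 each of autophagy, ubiquitin and the proteasome, and bZIP factors, and 6 of bHLH and AP2/ERF factors. For vesicle traffic the number was 13, and for chromatin and RNA factors 26. Only 2.83% of all genes it could choose became members, so nothing is read from these absences. By symbol, 9 of 18 autophagy genes tested in the ovary rose and 2 fell (median 0.67), as did 6 and 2 of 12 trehalose genes (0.85), and all 3 dehydrin and LEA genes rose (5.74), as did all 3 raffinose and inositol genes (1.38). For ubiquitin and the proteasome 3 of 8 rose and none fell (0.47), for bZIP factors 12 of 34 rose and 7 fell (0.27), and for bHLH and AP2/ERF factors 17 of 50 rose and 15 fell (0.11). For chromatin and RNA factors 15 of 63 rose and 15 fell (0.07), and for vesicle traffic 4 of 29 rose and 12 fell (-0.52). The summed FPKM of the vesicle traffic list was higher under drought all the same. It was 8257 and 9575 in droughted ovaries, against 2810 and 2574 in well-watered ovaries. Of the heat shock list, which holds Hsf05, 8 of 25 rose and 11 fell (-0.28).

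Several IDs of the set are not independent. Besides the leading pair, GRMZM2G102933 and GRMZM2G153977 belong to 1 RefSeq gene, as do GRMZM2G064136 and GRMZM2G120918, which leaves 147 members when each pair is counted once. Unlike the leading pair, these differed in level, by up to 3.25 and 2.85 on the log2(FPKM + 1) scale. In all, 9 members had a RefSeq gene that holds another ID. The partners outside the set had ovary changes of -0.76 (GRMZM2G399700), -0.10 (GRMZM5G893976), 0.25 (GRMZM2G132971), 1.87 (GRMZM2G014329) and 1.91 (GRMZM5G831887). In the leaf, 4.28% of all IDs had the same 4 values as another ID, and 3 members are among them. Besides Hsf05 these are GRMZM2G075002, which shares its leaf values with GRMZM2G075148, and GRMZM2G497531, which shares them with GRMZM5G803365. In the ovary the partner GRMZM2G075148 had 1.88 and 1.82 FPKM under drought and 5.35 and 5.52 FPKM in controls, against 19.2 and 22.4 FPKM under drought and 6.24 and 3.17 FPKM in controls for GRMZM2G075002. The flat leaf values of these 3 members are thus values of more than 1 ID. No member shared its 4 ovary values with another ID.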

How the data were processed

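Polyadenylated RNA of droughted and well-watered ovary and basal leaf meristem was sequenced in 8 libraries, 2 per group. Each tissue has 1 deposited table of FPKM, which the authors computed. CASAVA 1.8, TopHat 1.2.0 and Cufflinks 1.0.2 are named in the submitters' processing notes. What each did is not stated there, and genome build, annotation and further scaling are likewise not stated in these sources. No coordinates or sequences are printed. Groups and replicate numbers come from the sample titles.

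IDs were matched to names through the synonyms of RefSeq genes (Zm-B73-REFERENCE-NAM-5.0), leaving out clone, marker and LOC names. The members, gene lists and tests were chosen with earlier results of these data known, and the glutathione transferase list and the comparison of neighbouring genes after seeing the members. The text names the 20 members with the largest ovary change, members with a name, the 5 genes on each side of the edge, the most abundant and the least repeatable members, and list genes. Genes outside the members were picked from their lists, or from the neighbours, after their values were seen. It was planned to compare protein relatives, promoters and proteins, which are not analysed here.

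Fits used limma 3.58.1 in R 4.3.3 (lmFit, then eBayes allowing a trend) on the deposited values as log2(FPKM + 1), over genes averaging at least 1 FPKM, within each tissue and over all 8 libraries for the ovary change minus the leaf change, tested on simulated data first. P-values were adjusted by Benjamini-Hochberg over all genes of a fit, and genes were called at an adjusted p under 0.05. Alternatives were other pseudocounts, filters, scalings and rule limits, eBayes without trend, the replicate block, and each library left out.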

Additional observations from a re-analysis of the deposited data

Results flagged for a closer look

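The ovary change lay above the leaf change in all 150 members by limma at an adjusted p under 0.05, against 23% of all genes fitted. What drew attention is a difference between tissues under the same contrast, which the choice of members fixes in direction. Groups of 2 libraries are too small for a check of single libraries that stand apart.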

How the results depend on the processing

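Membership depended more on the leaf than on the ovary. Applying the rule again without 1 library kept between 86 and 136 of the 150 members, with the fewest without leaf control 2 (86), and 134 to 136 without any 1 ovary library. A leaf span under 0.3 kept 77 members and a leaf change within 0.1 either way kept 81, by their construction. A pseudocount of 0.1 FPKM kept 136, upper quartile scaling 135, quantile normalization 123 and a minimum of 10 FPKM 113. The count of all genes called rising in the ovary was 5614, and between 2257 and 3791 without 1 ovary library, with 2692 without control 2, 3016 without drought 1 and 2257 without drought 2. The members' median ovary change was between 1.98 and 2.17 without 1 ovary library. Members called rising in the ovary numbered between 133 and 142 without 1 ovary library, those called for the tissue difference between 148 and 150 without any 1 library, and none was called in the leaf under any alternative. The 33 members named for their change or their name had ovary changes from 1.40 to 4.78 over the 231 alternative values. The rule chose members for a large ovary change and a flat leaf. The sign of these values is thus fixed by the choice, the counts of members called are largely so, and nothing is read from them.

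The replicate number as a block called 5862 genes as rising in the ovary and 150 members in the ovary and for the tissue difference. So far as the labels show, same-numbered libraries share only a number. Their deviations correlated at 0.11 across genes in the ovary and at -0.17 in the leaf, which does not settle whether they share more. In the leaf, where limma called 527 genes as rising and 203 as falling without a block, pairing by number called 230 and 121, and pairing drought 1 with control 2 called 425 and 186, with no member in either. Without leaf drought 1 or leaf drought 2 no gene was called in the leaf, without leaf control 1 1509 rose and 479 fell, and without leaf control 2 234 rose and 141 fell. Causes were not tested. Relatives by protein and sequence features were planned and not run because no protein or promoter table was used here. Depth limits the low members most, and its size is not known.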

Other observations

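Genes next to the members in RefSeq order, a comparison added after seeing the members, were close to the background. For 115 members with 1 protein-coding RefSeq gene, 111 neighbouring genes that are no members were tested in the ovary. Of these limma called 27 (24.3%) as rising and 36 (32.4%) as falling at an adjusted p under 0.05, against 23.6% and 29.5% of all genes. Their median log2 change was -0.02. In the leaf 4 of 103 (3.88%) were called, against 3.26% of all genes. Picked after seeing their values, 2 neighbours are given. GRMZM2G176307, named gpc4 after a cytosolic glyceraldehyde phosphate dehydrogenase and next to nbp35, changed by -4.34 (limma adjusted p = 4.69e-05). ABI14 (GRMZM2G106673), next to GRMZM2G090010, rose by 2.64 (limma adjusted p = 0.000181). Members were neighbours of each other in 2 pairs, GRMZM2G015136 with GRMZM2G086876 and GRMZM2G015314 with GRMZM2G381051.

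The genes closest in pattern to the leading members over the 8 libraries were sought by Pearson correlation of log2(FPKM + 1). The libraries fall into 4 groups of 2, so the 8 points are not independent and no p is given. After its near-copy GRMZM2G129298, GRMZM2G129300 was closest to GRMZM2G010834 (r = 0.997) and GRMZM2G172376 (r = 0.997). GRMZM2G022915 was closest to GRMZM2G006416 (r = 0.996), HB45 (GRMZM2G126808, r = 0.995) and GRMZM2G047038 (r = 0.993). Of these HB45, a homeobox gene by its name, is no member. It had 66.3 and 87.6 FPKM in droughted ovaries, against 8.24 and 6.49 FPKM in well-watered ovaries, and 17.1 and 17.0 FPKM in droughted leaves, against 12.9 and 19.3 FPKM in well-watered leaves.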
